A study of Mus musculus with 23 samples.

Results

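The genes described here are the erythroid and globin genes of whole mouse embryos, a set of 29 listed symbols covering the embryonic and adult globins, erythroid transcription factors, receptors, red cell membrane proteins, blood group proteins and the enzymes of haem synthesis. A symbol was kept where its row was in both deposited tables of total counts (females and males) and averaged 1 CPM or more (CPM is the count of a gene divided by the total count of its library in mega). This left 28 of the 29 symbols, out of 26183 gene rows in all, and Ahsp was not analysed here. Hba-a1 and Hba-a2 held identical counts in all 23 embryos, so that the 28 rows carried 27 distinct sets of counts.

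RNA was sequenced from 23 whole embryos at E13.5, hybrids of 129 mothers and DBA fathers, with 1 library per embryo. ZFP57 is a zinc finger protein best known for holding methylation marks on imprinted genes. The M+Z+ embryos had ZFP57 from the oocyte and from their own genome (6 females, 4 males), the M-Z+ embryos came from mothers without Zfp57 and carried a functional copy from the father (3 females, 3 males), and the M-Z- embryos had neither (4 females, 3 males). In the titles M+Z+ and M-Z+ both carry the genotype Zfp57-/+ and M-Z- carries Zfp57-/-, and the headers of the tables call the M+Z+ columns WT, so whether M+Z+ embryos carried 1 mutant copy was not settled by the sources used here. Nothing in the labels tells which embryos were littermates, and p-values measure the spread between these embryos.

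Red cells of the mouse embryo come in successive waves. Primitive erythroid cells of the yolk sac make the embryonic globins from Hbb-y, Hbb-bh1 and Hba-x. Definitive erythroid cells, which form in the fetal liver around mid-gestation, make the adult globins from Hbb-b1, Hba-a1 and Hba-a2. Counts of whole embryos do not show which of these cells a read came from, so the adult rows are no measure of definitive cells alone. A haemoglobin molecule pairs alpha-like with beta-like chains, and transcription factors such as KLF1, TAL1 and NFE2 drive the globin genes together with the haem and membrane genes of the red cell.

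Libraries held 15.2 to 24.1 M counts (mega, median 17.4 M), and a count of 0 allowed up to 0.125 to 0.198 CPM (3 counts, counting error only). Zfp57 itself, on chr17:37138108-37147674 of mm9, stood at 52.7 to 99.1 CPM in M+Z+, at 66.6 to 78.6 CPM in M-Z+ and at 25.5 to 35.3 CPM in M-Z- embryos. The erythroid label was checked on Gata1, the lead erythroid GATA factor, and Alas2, the erythroid enzyme that starts haem synthesis, which are not in the set. The count of each was above 0 in every embryo, with 9.41 to 38.1 CPM for Gata1 and 107 to 223 CPM for Alas2. Defining placental genes were near 0, with Tpbpa and Prl3d1 at a count of 0 in 22 of 23 embryos each.

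The beta-like members lie in a cluster on chromosome 7 of mm9, on the minus strand, with Hbb-y at chr7:111000268-111001721, Hbb-bh1 at chr7:110990152-110991676 and Hbb-b1 at chr7:110975046-110976443. The alpha-like members lie on the plus strand of chromosome 11, with Hba-x at chr11:32176600-32178115. The rows of Hba-a1 and Hba-a2 both span the pair of adult alpha gene copies, from chr11:32183672-32197303 for Hba-a1. The promoters of the globins are shown as a description and were not related to the genotype comparison below. Each window runs from 250 bases before to 50 bases after the 5′ end of the deposited gene row, read from mm9 on the strand of the gene. Capitals mark the strings searched on both strands, of which AGATAA is a GATA motif, as is its variant TGATAA, whereas CACCC is the core of the motif that KLF1 binds. The others are the CCAAT string of many promoters and ATAAA, which can be part of a TATA box.
Hbb-y, chr7:111001672-111001971: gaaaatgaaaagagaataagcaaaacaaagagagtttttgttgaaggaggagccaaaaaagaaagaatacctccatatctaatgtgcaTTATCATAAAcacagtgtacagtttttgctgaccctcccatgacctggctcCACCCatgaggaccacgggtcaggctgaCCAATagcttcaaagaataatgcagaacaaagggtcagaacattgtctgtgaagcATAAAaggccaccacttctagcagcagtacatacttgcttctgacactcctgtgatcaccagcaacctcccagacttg
Hbb-bh1, chr7:110991627-110991926: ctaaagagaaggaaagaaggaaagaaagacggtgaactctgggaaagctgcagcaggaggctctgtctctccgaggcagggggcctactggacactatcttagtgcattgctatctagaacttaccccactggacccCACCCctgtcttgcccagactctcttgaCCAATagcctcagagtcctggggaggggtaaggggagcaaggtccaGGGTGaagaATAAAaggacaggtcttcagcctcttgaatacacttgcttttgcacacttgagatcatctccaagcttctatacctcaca
Hbb-b1, chr7:110976394-110976693: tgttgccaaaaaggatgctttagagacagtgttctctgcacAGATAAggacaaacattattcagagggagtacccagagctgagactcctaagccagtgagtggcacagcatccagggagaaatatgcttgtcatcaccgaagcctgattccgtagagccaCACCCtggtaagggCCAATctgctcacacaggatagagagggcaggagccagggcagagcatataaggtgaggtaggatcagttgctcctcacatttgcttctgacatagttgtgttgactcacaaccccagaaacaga
Hba-x, chr11:32176350-32176649: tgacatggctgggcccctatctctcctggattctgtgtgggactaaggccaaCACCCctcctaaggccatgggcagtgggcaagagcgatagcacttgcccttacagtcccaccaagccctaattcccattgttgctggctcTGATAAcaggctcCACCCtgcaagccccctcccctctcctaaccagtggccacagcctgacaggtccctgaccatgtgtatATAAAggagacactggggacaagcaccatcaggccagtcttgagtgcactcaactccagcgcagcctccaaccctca
Hba-a1, copy 1, chr11:32183422-32183721: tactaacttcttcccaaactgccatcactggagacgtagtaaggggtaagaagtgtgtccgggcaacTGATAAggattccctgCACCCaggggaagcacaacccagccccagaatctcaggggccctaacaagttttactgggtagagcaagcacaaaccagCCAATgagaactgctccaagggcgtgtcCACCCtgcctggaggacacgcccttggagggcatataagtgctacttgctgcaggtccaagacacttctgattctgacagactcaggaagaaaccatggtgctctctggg

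All 5 windows held CACCC, and Hba-x alone among them lacked CCAAT. The window of the other adult alpha copy started 12817 bases further on and was identical in 300 of 300 bases, and the rows of Hba-a1 and Hba-a2 both count reads from either copy. In the Hbb-y window a TGATAA on the reverse strand (first base at -162 from the start) overlapped an ATAAA at -157. Among 26000 promoter windows of the tables, 10.2% held AGATAA and 7.98% held TGATAA, while 57.9% held CACCC, 38.4% held CCAAT and 37.5% held ATAAA. Of the 28 member windows, 12 held AGATAA and 12 held TGATAA, while 25 held CACCC, 13 held CCAAT and 13 held ATAAA. A match is a string of letters in this window and was not tested as a binding site.

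Levels were compared between genes as TPM (counts per length of the exons, scaled to the same total in every library). Hbb-b1 had the highest mean TPM of all genes (24315), and Hbb-y stood at rank 5 (14219). The adult alpha rows followed at 1732 TPM for Hba-a1 and 1720 for Hba-a2, Hba-x at 1419 and Hbb-bh1 at 345. Reads that map to more than 1 place were not counted, so the levels of the near-identical adult alpha copies, and the adult sum in any ratio built on them, may be too low. The other 22 members ranged from 326 TPM for Slc4a1, the anion exchanger band 3 of the red cell membrane, to 24.5 TPM for Nfe2. The transcription factors averaged 99.7 TPM for Hemgn, 99.6 for Klf1, 71.7 for Lmo2, 57.3 for Tal1, 45.3 for Zfpm1 and 24.5 for Nfe2. The receptors averaged 148 TPM for Tfrc and 35.5 for Epor. In the membrane group Slc4a1 (326 TPM) was followed by Epb41 (111), Ank1 (37.0) and Epb42 (33.3). The blood group and surface proteins stood at 79.3 TPM for Rhd, 72.6 for Kel, 72.5 for Ermap, 56.4 for Rhag and 32.6 for Icam4. The genes of haem synthesis and mitochondrial iron averaged 214 TPM for Slc25a37, 148 for Cpox, 146 for Urod and 140.3 for Fech, and Tmcc2 averaged 95.6 TPM.

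The members varied more among embryos of 1 group than most genes did. The median SD within groups was 0.38 on the log2 scale over the 28 members and 0.35 over the 22 that are not globins, against 0.14 over the 15503 genes that averaged 1 CPM or more. The embryonic globins spanned the widest range, with the highest embryo 26.6 times the lowest for Hbb-bh1, 24.1 times for Hba-x and 22.3 times for Hbb-y. Hemgn, a nuclear regulator of erythroid differentiation, followed at 9.53 times, and Epb41, the skeletal protein 4.1 that other cell types also make, had the narrowest range at 1.28 times.

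**Figure D1:**
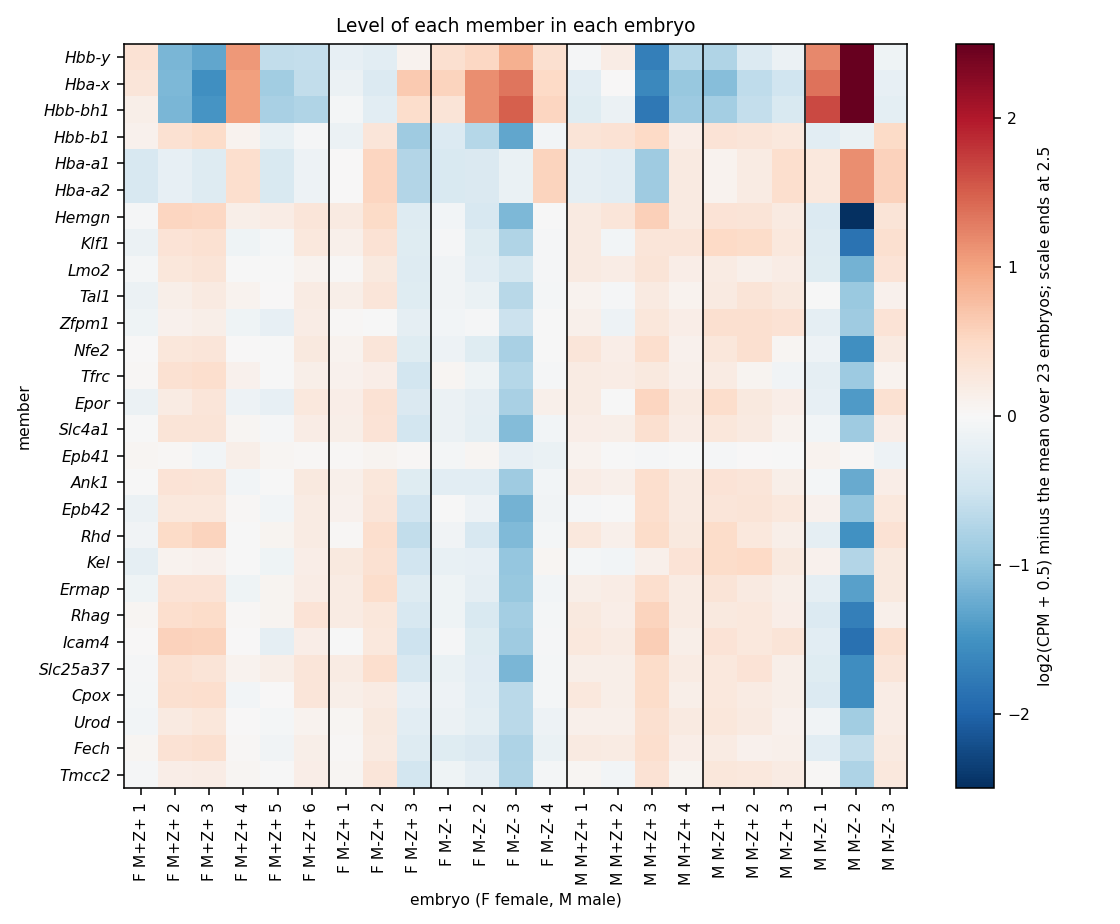
Each square is 1 member (row) in 1 embryo (column), coloured by log2(CPM + 0.5) minus the mean of that member over 23 embryos, red for higher and blue for lower. Male M-Z- replicate 2 shows the highest embryonic globins and the lowest Hemgn, and male M+Z+ replicate 3 shows the lowest embryonic globins.

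The highest and lowest values fell on a few embryos. Male M-Z- replicate 2 held the highest value of Hbb-y, Hbb-bh1, Hba-x and Hba-a1 and the lowest value of Hemgn, Klf1, Cpox, Slc25a37, Rhag and Rhd, among others. Male M+Z+ replicate 3 held the lowest value of the same 3 embryonic globins and of Hba-a1, and the highest of Hbb-b1, Hemgn, Cpox, Slc25a37 and Rhag. Female M-Z- replicate 3 held the lowest value of Hbb-b1, Slc4a1, Fech, Kel, Epb42 and Epb41. The map of member levels by embryo shows the globins of the embryonic kind high where most of the other members were low.

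M-Z- embryos were compared with M+Z+ embryos to see what changed when neither mother nor embryo supplied ZFP57. With the sexes in 1 fit, all 3 embryonic globins rose in M-Z- embryos, by 1.89 on the log2 scale for Hbb-bh1, 1.82 for Hba-x and 1.39 for Hbb-y, and 6 members fell, namely Hbb-b1, Hemgn, Rhag, Rhd, Slc25a37 and Cpox. A member was called at an adjusted p below 0.05 in edgeR's quasi-likelihood test over all genes and a log2 change of at least 0.5 in size. Thus 9 of 28 members were called against 2.19% of 17139 genes tested, with 3 higher against 0.957% and 6 lower against 1.24%. The members were chosen with earlier results of these data known, so an excess over these shares is a description and no independent evidence. At an adjusted p below 0.05 with no minimum size, 17 members passed, 14 of them lower, beside 1661 of the 17139 genes, 730 of them lower. The median log2 change was -0.39 over the members and -0.0017 over all genes tested, and 23 of 28 members were negative.

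**Figure D2:**
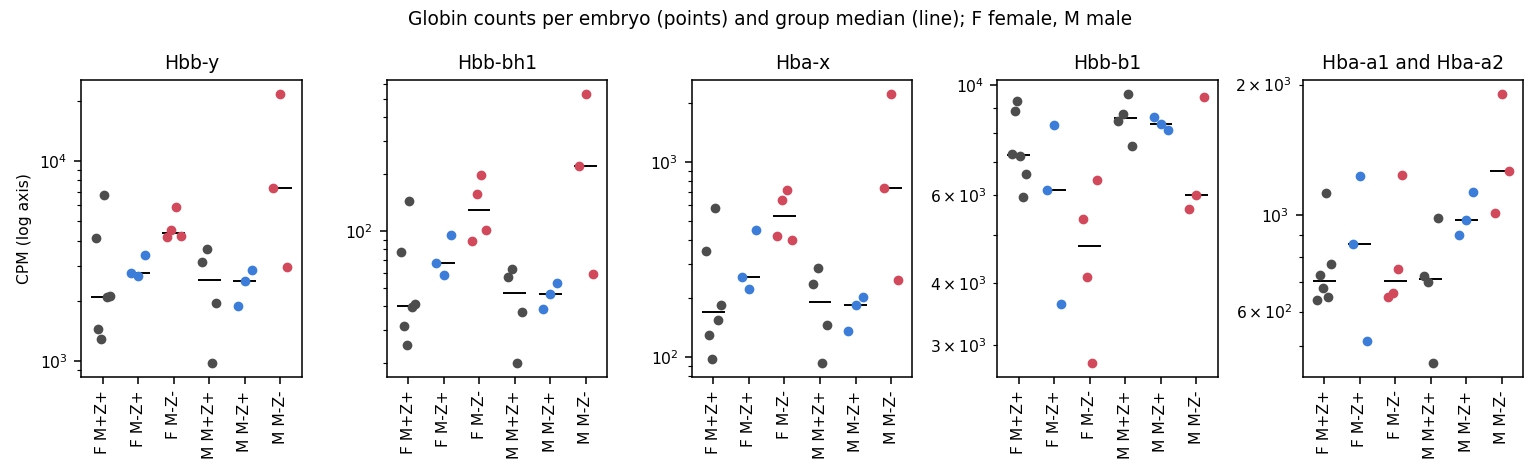
Points are the CPM of a globin in 1 embryo (log axis), by sex and genotype, and lines are group medians, in 5 panels for Hbb-y, Hbb-bh1, Hba-x, Hbb-b1 and the identical Hba-a1 and Hba-a2. The 4 female M-Z- embryos sit above the M+Z+ median in each embryonic panel, and male M-Z- replicate 3 stays at 59.1 CPM of Hbb-bh1 where male M-Z- replicate 2 reaches 532 CPM.

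Hbb-y encodes the epsilon-like chain of embryonic haemoglobin. In females it was at 1289 to 6758 CPM in M+Z+ (median 2093, n = 6), at 2747, 2648 and 3375 CPM in M-Z+, and at 4186, 4534, 5884 and 4198 CPM in M-Z- embryos. The males were at 3112, 3615, 974 and 1947 CPM in M+Z+, at 1873, 2514 and 2860 CPM in M-Z+, and at 7340, 21684 and 2938 CPM in M-Z- embryos. Every female M-Z- embryo was above the M+Z+ median, yet female M+Z+ replicate 4 was the highest female of all, and male M-Z- replicate 3 lay within the M+Z+ range. Hbb-y rose by 1.39 in M-Z- against M+Z+ (log2, SE 0.37, adjusted p 0.0185 in edgeR), with 0.66 in females (SE 0.34, adjusted p 0.368) and 2.22 in males (SE 0.55, adjusted p 0.105).

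Hbb-bh1 encodes another embryonic beta-like chain and was the lowest of the globins. Female values were 24.9 to 144 CPM in M+Z+ (median 40.4, n = 6), 67.7, 58.4 and 95.2 CPM in M-Z+, and 88.2, 157, 197 and 101 CPM in M-Z-. Male values were 56.9, 63.0, 19.99 and 37.2 CPM in M+Z+, 38.5, 46.3 and 53.4 CPM in M-Z+, and 221, 532 and 59.1 CPM in M-Z-. As for Hbb-y, the groups overlapped through female M+Z+ replicate 4 and male M-Z- replicate 3. Hbb-bh1 rose by 1.89 (SE 0.38, adjusted p 0.00283 in edgeR), with 1.17 in females (SE 0.37, adjusted p 0.131) and 2.68 in males (SE 0.54, adjusted p 0.0583).

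Hba-x encodes zeta globin, the embryonic alpha-like chain, and lies on another chromosome than the beta-like genes. It was at 98.0 to 579 CPM in female M+Z+ embryos (median 170, n = 6), at 257, 224 and 449 CPM in female M-Z+, and at 419, 636, 716 and 400.2 CPM in female M-Z-. Male embryos stood at 237, 287, 92.9 and 147 CPM in M+Z+, at 136, 184 and 203 CPM in M-Z+, and at 733, 2239 and 247 CPM in M-Z-. Its highest and its lowest embryo were those of Hbb-y and Hbb-bh1 as well. Hba-x rose by 1.82 (SE 0.39, adjusted p 0.00466 in edgeR), with 1.11 in females (SE 0.38, adjusted p 0.159) and 2.57 in males (SE 0.56, adjusted p 0.0802).

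Among the adult globins, the beta and the alpha rows differed in direction. Hbb-b1 encodes the adult beta chain, and its row was identical to that of Hbb-bs. In females it was at 5945 to 9277 CPM in M+Z+ (median 7240, n = 6), at 6150, 8308 and 3633 CPM in M-Z+, and at 5369, 4110, 2757 and 6447 CPM in M-Z-. The males were at 8458, 8738, 9610 and 7544 CPM in M+Z+, at 8625, 8346 and 8128 CPM in M-Z+, and at 5635, 6026 and 9447 CPM in M-Z-. Female M-Z- replicate 4 and male M-Z- replicate 3 lay within the M+Z+ range of their sex, while the other M-Z- embryos lay below it. Hbb-b1 fell by 0.51 (SE 0.16, adjusted p 0.0371 in edgeR).

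Hba-a1, which encodes the adult alpha chain, stood for both alpha rows. It was at 637 to 1127 CPM in female M+Z+ (median 704, n = 6), at 857, 1228 and 512 CPM in female M-Z+, and at 647, 661, 753 and 1237 CPM in female M-Z- embryos. Males stood at 726, 701, 456 and 984 CPM in M+Z+, at 901, 974 and 1129 CPM in M-Z+, and at 1014, 1905 and 1264 CPM in M-Z-. The male M-Z- embryos all lay above the male M+Z+ embryos, and the female groups overlapped widely. The log2 difference of Hba-a1 was 0.50 over the sexes (SE 0.19, adjusted p 0.1 in edgeR), 0.10 in females (SE 0.22, adjusted p 0.873) and 1.02 in males (SE 0.24, adjusted p 0.093), none of them called.

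Of the 6 transcription factors (Klf1, Nfe2, Tal1, Lmo2, Zfpm1 and Hemgn), 1 was called, and all 6 were negative. Hemgn was at 95.1 to 142 CPM in female M+Z+ (median 116, n = 6), at 114, 136 and 77.9 CPM in female M-Z+, and at 92.8, 73.4, 44.4 and 97.0 CPM in female M-Z- embryos. The males were at 114, 120.0, 147 and 114 CPM in M+Z+, at 124, 121 and 114 CPM in M-Z+, and at 77.5, 15.5 and 123 CPM in M-Z-. The lowest value of Hemgn was thus in the embryo with the most embryonic globin. Hemgn fell by 0.69 (SE 0.21, adjusted p 0.0383 in edgeR). Nfe2, a subunit of the NF-E2 factor at globin enhancers, differed by -0.48 (adjusted p 0.0329), Lmo2, a bridging protein of the TAL1 complex, by -0.37 (adjusted p 0.0431), Klf1, which activates the adult beta gene, by -0.43 (adjusted p 0.107), Tal1, which starts the blood programme, by -0.30 (adjusted p 0.062) and Zfpm1, the GATA1 cofactor FOG1, by -0.21 (adjusted p 0.249).

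Neither receptor was called. Tfrc, the transferrin receptor that takes up iron, was at 341 to 457 CPM in the female M+Z+ group (median 373, n = 6), at 369, 386 and 250.1 CPM in female M-Z+ and at 352, 320, 209 and 337 CPM in female M-Z-. Male values were 396, 388, 408 and 373 CPM in M+Z+, 393, 361 and 324 CPM in M-Z+ and 295, 183 and 362 CPM in M-Z-. The 3 male M-Z- embryos thus lay below the 4 male M+Z+ embryos, and the female groups overlapped through M-Z- replicate 1. Tfrc differed by -0.40 (SE 0.11, adjusted p 0.0218 in edgeR), below the minimum size, and Epor, the erythropoietin receptor, by -0.37 (adjusted p 0.135).

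Among the 4 genes of the membrane skeleton and the band 3 complex none was called, though 2 passed on p alone. Slc4a1 was at 652 to 830 CPM in the female M+Z+ group (median 719, n = 6), at 728, 844 and 482 CPM in female M-Z+ and at 595, 555, 312 and 629 CPM in female M-Z-. Male values were 742, 730, 871 and 752 CPM in M+Z+, 800, 770 and 706 CPM in M-Z+ and 635, 356 and 744 CPM in M-Z-. Female M-Z- embryos were below the M+Z+ range, as were male M-Z- replicates 1 and 2. Slc4a1 differed by -0.45 (SE 0.13, adjusted p 0.0241 in edgeR) and Ank1, the ankyrin that ties band 3 to spectrin, by -0.49 (adjusted p 0.0166), while Epb42, the protein 4.2 of the same complex, differed by -0.33 (adjusted p 0.142) and Epb41 by -0.06 (adjusted p 0.406).

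Of the 5 genes of blood group and surface proteins, both Rh genes fell. Rhag encodes the glycoprotein that carries the Rh complex and lies on chr17:40948098-40977703, 3.8 Mb from Zfp57. It was at 58.6 to 78.5 CPM in female M+Z+ (median 66.3, n = 6), at 66.3, 69.5 and 43.1 CPM in female M-Z+, and at 53.0, 43.7, 31.5 and 55.6 CPM in female M-Z- embryos. Male embryos stood at 68.0, 64.2, 84.3 and 66.2 CPM in M+Z+, at 68.3, 68.8 and 64.3 CPM in M-Z+, and at 44.7, 17.2 and 62.6 CPM in M-Z-. In each sex all its M-Z- embryos lay below all M+Z+ embryos, which held for 1 of 28 members and for 0.748% of 15503 genes (0 members and 0.755% of genes in the higher direction). It fell by 0.63 (SE 0.15, adjusted p 0.0102 in edgeR).

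Rhd encodes the Rh polypeptide that pairs with the RHAG protein. It was at 49.5 to 77.6 CPM in female M+Z+ (median 57.8, n = 6), at 53.3, 69.8 and 33.9 CPM in female M-Z+, and at 49.1, 39.6, 24.3 and 50.8 CPM in female M-Z- embryos. The males were at 63.2, 57.6, 72.6 and 62.2 CPM in M+Z+, at 72.3, 62.7 and 58.0 CPM in M-Z+, and at 44.5, 18.0 and 67.1 CPM in M-Z-. The M-Z- groups overlapped the M+Z+ groups through female replicate 4 and male replicate 3. Rhd fell by 0.57 (SE 0.17, adjusted p 0.0381 in edgeR), while Icam4, the Landsteiner-Wiener adhesion protein (-0.55, adjusted p 0.0646), Ermap, which carries the Scianna antigens (-0.47, adjusted p 0.0383), and Kel, the Kell endopeptidase (-0.23, adjusted p 0.247), were not called.

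The 4 genes of haem synthesis and mitochondrial iron all passed on adjusted p, as 1661 of 17139 genes did, and 2 of the 4 passed the size as well. Slc25a37 encodes mitoferrin 1, which brings iron into mitochondria. It was at 382 to 510.0 CPM in female M+Z+ (median 454, n = 6), at 450.4, 524 and 294 CPM in female M-Z+, at 348, 322, 176 and 378 CPM in female M-Z-, at 432, 433, 539 and 448 CPM in male M+Z+, at 470, 494 and 434 CPM in male M-Z+, and at 314, 132 and 482 CPM in male M-Z- embryos. All 4 female M-Z- embryos were below all 6 female M+Z+ embryos, and 2 of the 3 male M-Z- embryos were below all 4 male M+Z+ embryos. Slc25a37 fell by 0.56 (SE 0.16, adjusted p 0.0289 in edgeR).

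Cpox encodes coproporphyrinogen oxidase, and Fech the ferrochelatase that puts iron into haem. Cpox was at 198 to 279 CPM in female M+Z+ (median 232, n = 6), at 230, 239 and 181 CPM in female M-Z+, at 191, 173, 130.3 and 201 CPM in female M-Z-, at 250, 230, 287 and 229 CPM in male M+Z+, at 250.3, 238 and 229 CPM in male M-Z+, and at 164, 70.6 and 237 CPM in male M-Z- embryos. It fell by 0.53 (SE 0.14, adjusted p 0.0183 in edgeR), with a small overlap of the groups in each sex. Fech was at 174 to 243 CPM in female M+Z+ (median 198, n = 6), at 189, 217 and 148 CPM in female M-Z+, at 150, 144, 108 and 164 CPM in female M-Z-, at 217, 214, 250 and 207 CPM in male M+Z+, at 213, 199 and 203 CPM in male M-Z+, and at 155, 120.1 and 217 CPM in male M-Z- embryos. In females no M-Z- embryo reached the M+Z+ range of Fech. Over the sexes Fech differed by -0.49 (SE 0.10, adjusted p 0.00233), just under the minimum size, and Urod, the uroporphyrinogen decarboxylase, by -0.38 (SE 0.10, adjusted p 0.0149). Tmcc2, a transmembrane protein in a group of its own here, was at 176 to 206 CPM in the female M+Z+ group (median 194, n = 6), at 185, 223 and 131 CPM in female M-Z+, at 166, 154, 106 and 175 CPM in female M-Z-, at 186, 172, 232 and 189 CPM in male M+Z+, at 217, 217 and 207 CPM in male M-Z+, and at 184, 105 and 216 CPM in male M-Z- embryos. Its female groups did not overlap, yet it differed by -0.28 only (SE 0.11, adjusted p 0.101).

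**Figure D3:**
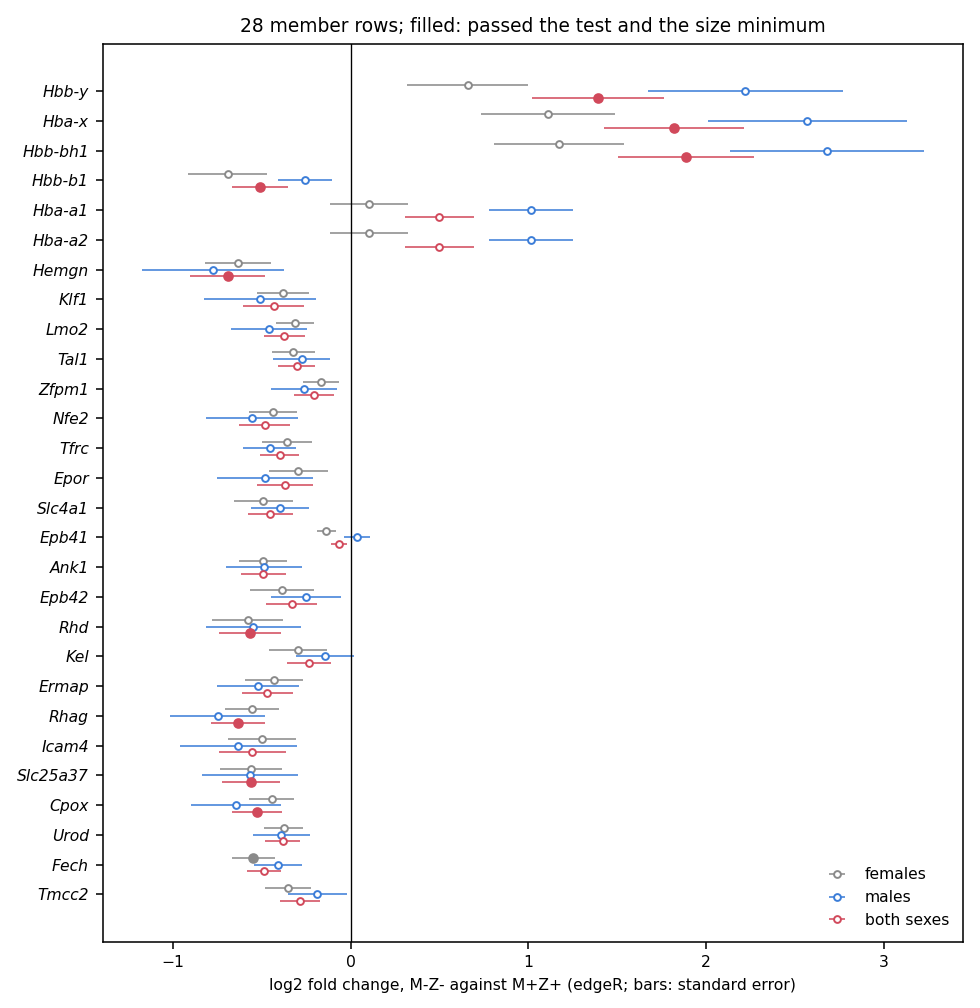
Points are the log2 fold changes of the 28 member rows in M-Z- against M+Z+ embryos from edgeR, in females, males and both sexes, with bars for the standard error, and filled points passed the test and the size minimum. The 3 embryonic globins lie to the right of 0 in each fit, 9 points are filled for both sexes, and 1 (Fech) is filled for females.

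Single embryos and the choice of controls weighed on these counts. Of the fits that left out 1 embryo, only the one with 16 members called is given here beside its calls over all genes. For the others named, a change in the members cannot be told apart from a change in all calls. The number of members called over the sexes was 3 without male M-Z- replicate 2 (Hemgn, Hbb-bh1 and Hba-x), 4 without female M-Z- replicate 3 or male M+Z+ replicate 3, 5 without female M+Z+ replicate 2 or 3, 14 without female M-Z- replicate 4 and 16 without male M-Z- replicate 3, when 539 of 17341 genes were called. When the embryo left out was male M-Z- replicate 2, the log2 change was 1.35 for Hbb-bh1, 1.20 for Hba-x and 0.82 for Hbb-y. The study's figure labels put the M+Z+ embryos in 2 sets, without saying how the sets differ or which replicate numbers they hold, so a difference between sets of controls was not settled. With only the M+Z+ embryos numbered 4 and above (3 females, 1 male) no member was called (5 at an unadjusted p with the size minimum, beside 443 of all genes) and 76 of 17619 genes were, in place of 376 of 17139, and the log2 differences of the embryonic globins were 1.56 for Hbb-bh1, 1.58 for Hba-x and 1.07 for Hbb-y.

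Within the sexes fewer members were called. In females 1 of 28 was called against 0.563% of 16871 genes, namely Fech, which was lower by 0.55 (SE 0.12, adjusted p 0.0354 in edgeR) against 0.279% of genes called lower, and 8 members passed at an unadjusted p with the size minimum, as did 504 of all genes. The female count was 0 without M+Z+ replicate 2, 3 or 6, M-Z+ replicate 1, or M-Z- replicate 1, 2 or 3, fits that called 55 to 89 of all genes. It was also 0 with only the M+Z+ embryos numbered 4 and above (67 of 16737 genes called, 95 of 16871 in the main fit). It was 2 when M-Z+ replicate 3 was left out (102 of 17062 genes). Without M+Z+ replicate 4 it was 4 (Fech and the 3 embryonic globins), beside 116 of 16831 genes. In males edgeR called 0 members against 0.39% of 16664 genes, with 8 at an unadjusted p (832 of all genes), and DESeq2's Wald test called 2 (Hbb-bh1 and Hba-x) and 188 of all genes. The male count became 2, both times the identical rows Hba-a1 and Hba-a2, on leaving out M+Z+ replicate 4 (144 of 16600 genes called) or M-Z- replicate 1 (92 of 16887 genes). It became 22 on leaving out M-Z- replicate 3, when 899 of 16866 genes were called in place of 65 of 16664. In that embryo the embryonic globins lay within the range of the M+Z+ males, whereas Hba-a1, Tfrc and Rhag did not. Median log2 changes of the members were -0.38 in females and -0.40 in males.

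The ranges of the groups give the same comparison without a model. In females 8 members (Nfe2, Ank1, Slc4a1, Rhag, Fech, Urod, Slc25a37 and Tmcc2) were lower in M-Z- without any overlap of the groups, against 2.1% of 15503 genes, and 0 members were higher without overlap, against 2.37%. In males Tfrc and Rhag were lower without overlap (2 members, against 6.5% of genes), and Hba-a1 and Hba-a2, which are 1 set of counts, were higher (2 members, against 4.33%), shares near the background.

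By their names, M-Z+ and M+Z+ embryos differ in the supply from the oocyte alone. No member was called in females (background 0.0593% of genes), in males (0.048%) or over the sexes (0.0759%), and in each the count at an unadjusted p with the size minimum and the count by DESeq2 were 0 as well. Over the sexes the log2 difference was -0.08 for Hbb-y (SE 0.38), 0.14 for Hbb-bh1 (SE 0.40), 0.08 for Hba-x (SE 0.41) and -0.22 for Hbb-b1 (SE 0.16).

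Between M-Z- and M-Z+ embryos, which share mothers without Zfp57, 2 members were called over the sexes against 0.566% of genes, both of them higher against 0.263%. These were Hbb-bh1, by 1.75 (SE 0.44, adjusted p 0.0424 in edgeR), and Hba-x, by 1.75 (SE 0.46, adjusted p 0.0497), and Hbb-y differed by 1.47 (SE 0.43, adjusted p 0.0748). These calls were close to the threshold. Without male M-Z- replicate 3, 6 members were called, and in the male fit without it the calls over all genes rose as well, from 25 to 376. With other embryos left out, 1 member was called without female M+Z+ replicate 1, 2 or 5 or male M+Z+ replicate 3. The fits without those females called 87 to 92 of all genes, against 97 of 17139 in the main fit. No member was called without female M+Z+ replicate 6, female M-Z+ replicate 1 or 2, female M-Z- replicate 2 or 3, male M+Z+ replicate 1, 2 or 4, any male M-Z+ embryo, or male M-Z- replicate 1 or 2. Within females 0 were called against 0.196% of genes (0 at an unadjusted p, 0 by DESeq2), and within males 0 against 0.15% (5 at an unadjusted p beside 546 of all genes, 0 by DESeq2), or 11 without male M-Z- replicate 3, when 376 of 16866 genes were called. The comparisons with M+Z+ and with M-Z+ share the M-Z- embryos.

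Sex was compared in M+Z+ embryos, where 0 members were called against 0.0817% of genes (0 at an unadjusted p, 0 by DESeq2). The interaction asked whether the genotype effect differed between the sexes, and no gene passed, members included (0.0% of genes for M-Z- and 0.0% for M-Z+ against M+Z+). For M-Z- against M+Z+, 4 members and 1107 of all genes had an unadjusted p below 0.05 in edgeR, for M-Z+ there were 0, and DESeq2 called 0 in each. The female effect minus the male effect was -1.55 for Hbb-y (SE 0.69, adjusted p 0.755) and -0.90 for Hba-a1 (adjusted p 0.725), so that the larger values in males were not shown to differ from those in females.

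The embryonic to adult globin ratio was taken as a measure of stage, as the log2 of summed counts per kb of Hbb-y, Hbb-bh1 and Hba-x over those of Hbb-b1, Hba-a1 and Hba-a2. Its mean among females was -1.58 ± 1.01 for M+Z+ (SD, n = 6), -0.98 ± 0.83 for M-Z+ (n = 3) and 0.02 ± 0.72 for M-Z- (n = 4). The male means were -1.96 ± 0.88 for M+Z+ (SD, n = 4), -1.84 ± 0.33 for M-Z+ (n = 3) and 0.08 ± 1.68 for M-Z- (n = 3). The mean ratio was thus highest in M-Z- of each sex, and every pair of groups of the same sex overlapped. The female M-Z- embryos had -0.35, 0.17, 0.95 and -0.71, and the male M-Z- embryos had 0.32, 1.61 and -1.71, the last of them within the male M+Z+ values of -1.41, -1.23, -3.19 and -1.99. As a share of the counts per kb of these same rows, embryonic chains made up 75.4% in male M-Z- replicate 2 and 9.89% in male M+Z+ replicate 3. The adult beta row Hbb-bt is not among these rows.

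The module mean, the mean over members of log2(CPM + 0.5), averages members of both directions and moved less than the ratio. Among females it was 7.40 ± 0.11 for M+Z+ (SD, n = 6), 7.36 ± 0.29 for M-Z+ (n = 3) and 7.17 ± 0.27 for M-Z- (n = 4), and among males 7.44 ± 0.02 (n = 4), 7.52 ± 0.02 (n = 3) and 7.25 ± 0.42 (n = 3). Within each sex the groups overlapped except male M-Z+ against male M+Z+, where the difference was 0.08. Over the 22 members that are not globins the mean was 6.85 ± 0.17, 6.74 ± 0.33 and 6.42 ± 0.35 in females and 6.93 ± 0.13, 6.97 ± 0.07 and 6.34 ± 0.76 in males. The male M-Z- embryos had 6.56, 5.50 and 6.96 by this measure, with replicate 2 farthest from the others.

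**Figure D4:**
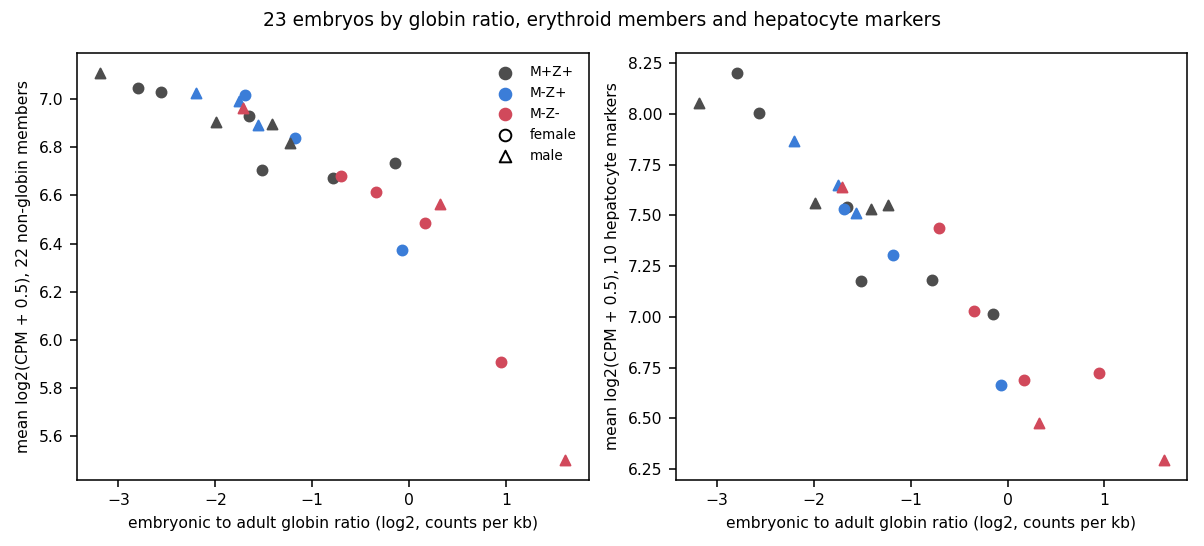
Each point is 1 embryo (circles female, triangles male, coloured by genotype), with the log2 embryonic to adult globin ratio on the x axis and, on the y axis, the mean log2(CPM + 0.5) of 22 non-globin members (left) or of 10 hepatocyte markers (right). Both fall as the ratio rises, with r of -0.90 (left) and -0.95 (right) over 23 embryos.

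Embryos with a higher ratio had lower levels of the other members. Over 23 embryos Pearson's r between the ratio and the mean of the 22 non-globin members was -0.90 and Spearman's rho -0.96, given here as a description because all points come from the same libraries as the genes compared. Without the 2 embryos farthest from the median ratio r was -0.91, and it was -0.89 within the 10 M+Z+ embryos and -0.95 within the other 13. The ratio built from the beta-like genes and the ratio built from the alpha-like genes, which lie on different chromosomes, went together over 23 embryos (r 0.91, rho 0.91, and r 0.87 without the 2 farthest). Among the 10 males r was 0.89 (rho 0.77) and 0.42 without the 2 farthest, so that in males the relation rests on those embryos.

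Markers of other cell types were measured beside these results, and they too were chosen with earlier results of these data known. Of 10 hepatocyte markers, 6 were called lower in M-Z- against M+Z+ over the sexes (Alb -0.98, Apoa1 -0.90, Trf -0.85, Fgb -0.77, Afp -0.60 and Apoa2 -0.54 on the log2 scale), beside 1.24% of all genes tested. DESeq2 called 5 of the 10. Apoa2 lost its call in 18 alternatives and kept it in 12, and Fgb lost it in 6 and kept it in 24. The median of the 10 markers was -0.65. Their summed level was 3773 to 8280 CPM in female M+Z+, 3086 to 5288 in female M-Z+ and 2875 to 4671 in female M-Z-, and 5325 to 7831, 5122 to 6466 and 2015 to 5116 CPM in males. The mean of these markers followed the globin ratio with r -0.95 (rho -0.95) over 23 embryos, and r was -0.92 within the 10 M+Z+ embryos. Markers of macrophages (8), megakaryocytes and platelets (7), endothelium (7) and blood stem and progenitor cells (6) had 0 called by edgeR. In the endothelial list 2 markers had an adjusted p below 0.05 in edgeR, both of them higher, with changes under the size minimum. Of all genes, 1661 of 17139 had such an adjusted p. At an unadjusted p with the size minimum 2 megakaryocyte genes passed, and 0 of the other 3 lists, and DESeq2 called 1 megakaryocyte gene. For the unadjusted and the DESeq2 counts of markers no share over all genes is given here, so they are not read further. Of 4 yolk sac and placenta genes tested, 1 was called lower (Apob -0.94, also a liver gene). The part of the hepatocyte genes in the change of the members was not tested. In whole embryos, fewer cells of a type and less RNA per cell cannot be told apart.

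The pathway was also followed in 72 further erythroid genes, of which 71 were in the tables and 69 were tested. Like the members, these genes were chosen with earlier results of these data known. Over the sexes 11 were called lower and 0 higher in M-Z- against M+Z+ embryos, beside 1.24% and 0.957% of all genes tested, with a median log2 change of -0.23. Those named here are the adult beta rows Hbb-bt and Hbb-b2, identical in all 23 embryos, which fell by 0.78 (adjusted p 0.00621 in edgeR), and Trim10, a gene of terminal erythroid differentiation, which fell by 0.71 (adjusted p 0.0128). Trim10 lies on chr17:37006519-37014778, 0.123 Mb from Zfp57, so its change cannot be told apart from one that goes with the chromosome stretch around Zfp57. Hbb-bt had 0.191 to 0.215 times the count of Hbb-b1 in male M-Z+ replicate 1 and male M-Z- replicates 2 and 3, against 0.411 to 0.454 in the other 20 embryos. How far the low ratio in male M-Z- replicates 2 and 3 enters the fall of Hbb-bt was not tested. By class, 6 of 19 genes of the membrane and its skeleton, 3 of 5 other globin rows and 2 of 8 red cell enzymes were called, against 0 of 12 transcription factors, 0 of 8 receptors and signalling genes and 0 of 17 genes of haem and iron. The 3 globin rows were Hbb-bs, which repeats the counts of the member Hbb-b1, and the identical Hbb-bt and Hbb-b2, so that among them only Hbb-bt adds a set of counts. For the same genotypes within females 0 were called by edgeR. At an unadjusted p with the size minimum 9 passed, beside 504 of all genes. DESeq2 called 2 in females, and its count over all genes is not given here. Within males edgeR called 0, with 15 at an unadjusted p beside 832 of all genes. DESeq2 called 2 in males, beside 188 of all genes. Gata1 differed by -0.41 (adjusted p 0.118) and Alas2 by -0.24 (adjusted p 0.125). In male M-Z- replicate 2, Gata1 was at 9.41 CPM, the lowest of all embryos, whereas Alas2 was at 215 CPM, within the male M+Z+ range of 199 to 223 CPM.

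Parental alleles could be read in 19 embryos with a usable column, from reads that cover a difference between the 129 and DBA strains, with 2.46 to 3.94 M assigned reads each. Among members with a mean of at least 20 assigned reads, 18 were tested in females and 19 in males for an allelic shift, called at an adjusted p below 0.05 in edgeR and a change in paternal share of at least 0.1 (as a fraction). None was called for M-Z- against M+Z+ in females (background 1.76% of 6464 genes) or males (2.54% of 6423), nor for M-Z+ against M+Z+ in females (0.186%) or males (0.171%), and the count at an unadjusted p with the same minimum was 0 in each. Several well-covered members had nearly equal alleles, with median paternal shares of 47.9% for Hba-x (45.5% to 51.1%), 51.0% for Klf1 and 50.9% for Ank1.

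**Figure D5:**
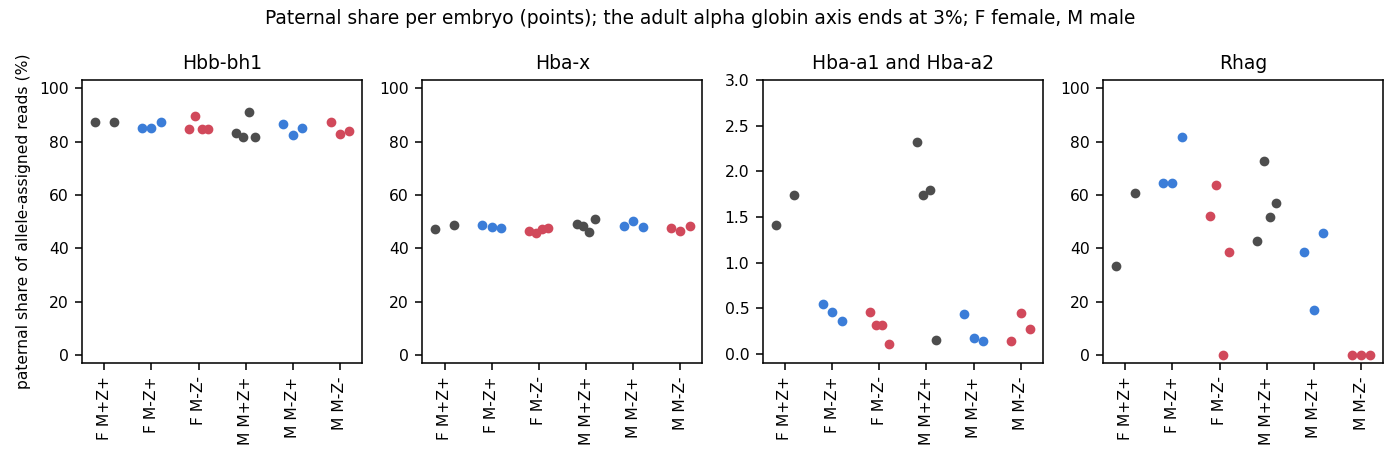
Points are the paternal share of allele-assigned reads in 1 embryo, in percent, by sex and genotype, in 4 panels for Hbb-bh1, Hba-x, the identical Hba-a1 and Hba-a2 (axis to 3%) and Rhag. Hbb-bh1 lies between 81.8% and 91.3% in every group, Hba-x between 45.5% and 51.1%, and Rhag is at 0% in the 3 male M-Z- embryos.

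The adult globins and Hbb-bh1 departed from equal shares in all genotypes. Hbb-b1 had a paternal share of 0.002% to 0.017% of a mean of 92367 assigned reads, and Hbb-bh1 had 81.8% to 91.3% (median 85.0%). The paternal share of Hba-a1 was 0.108% to 2.32%. It was 1.41% (95% Wilson interval 0.991% to 2.01%) and 1.75% in the 2 female M+Z+ embryos measured and 2.32% (1.87% to 2.89%), 1.75% and 1.80% in male M+Z+ replicates 1 to 3, against 0.153% (0.065% to 0.358%) in male M+Z+ replicate 4 and at most 0.54% in the other embryos. These differences are far below the minimum set on the share. Among the M+Z+ embryos measured they set replicates 1 to 3 apart from male replicate 4. Whether that split goes with the 2 sets of M+Z+ embryos in the study's figure labels was not tested. How far the shares of near-identical globin genes depend on the assignment of reads to strains was not tested. Hbb-y had a mean of 1.11 assigned reads and Slc4a1, Epor, Kel, Icam4 and Tmcc2 had 0, so nothing can be said of their alleles at this depth.

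Rhag had fewer assigned reads than the minimum in either sex and was not tested in the main comparison. It had 0 paternal reads in all 3 male M-Z- embryos, beside 11, 6 and 10 maternal reads, and even in the first of these a count of 0 allows a paternal share of up to 27.3%. In the 4 male M+Z+ embryos the share was 42.9%, 72.7%, 51.9% and 57.1%, and in the 3 male M-Z+ embryos 38.5%, 16.7% and 45.8%. Among female M-Z- embryos it was 52.0%, 63.6%, 0% of 5 reads and 38.5%. With any 1 of the male M-Z- embryos left out, Rhag passed the read minimum and was called, but it passed through the groups where its reads are more numerous and the M-Z- side then held 2 embryos with 0 paternal reads, so this call is given no weight. Rhag is the 1 member on the chromosome of Zfp57, whose genotype defines the groups, so that the genotype and the linked stretch of chromosome cannot be told apart here.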

How the data were processed

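RNA-seq libraries, mRNA-Seq per the titles, were made from total RNA of 23 E13.5 embryos, 1 each. The deposited tables held raw counts for each gene in each embryo. The authors had aligned uniquely mapped reads to mm9 with STAR 2.7.8a and counted them by strand with featureCounts (Subread 2.0.1), where a read over several genes counted for each. The deposited allelic tables held read counts by parental allele, split with SNPsplit after N-masking of strain variants, so members without such variants had no allelic value. Columns headed WT were read as M+Z+. The 8 female allelic columns of 4 M+Z+ embryos whose header names occurred 2 times each were not used.

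Counts were tested with edgeR 4.0.16 (TMM scaling, filterByExpr, quasi-likelihood test, Benjamini-Hochberg over all tested genes) under R 4.3.3. The fit held the 3 genotypes of a sex or all 6 groups, and a call needed an adjusted p below 0.05 and a log2 change of 0.5 or more (0.3 between sexes, none for interactions). The allelic test had a term for each embryo. DESeq2 1.42.0, other scalings and filters, a replicate block, other sets of controls and each embryo left out were the alternatives. On simulated data of M-Z- against M+Z+, the fit over both sexes recovered 99% of 2-fold and 100% of 4-fold changes with 3 false calls, that of females 93% and 98% with 4, and that of males 90% and 98% with 8. The changed genes were drawn from all genes above 1 CPM. Within groups the median SD of such genes was 0.14 on the log2 scale, against 0.38 for the members. These rates therefore do not give the recovery of members, and a member not called may still have changed. CPM and TPM used the total count and the deposited exon length, and the module mean used log2(CPM + 0.5). Both identical adult alpha rows entered the module mean and the globin ratio. The module mean, the ratio and correlations carry no p.

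The members, the further erythroid genes and the cell type markers were chosen with earlier results of these data known. The genes named were every member, Zfp57, Gata1, Alas2, the further erythroid genes with the largest called changes (1 of which is not reported here), and the hepatocyte markers called. Promoter sequences were read from the mm9 genome at the start of each deposited gene row. Intervals and limits cover counting error alone, because the reads carried no molecular identifiers and may repeat a molecule.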

Additional observations from a re-analysis of the deposited data

Results flagged for a closer look

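In groups of 4 to 10 embryos, the 27 distinct member rows, the module mean with and without the globins and the globin ratio were looked at again where 1 embryo stood further from the rest than Dixon's 95% critical value, which it did in 5 of the 90 groups so formed, each of them a member. Chance flags about 1 in 20 groups. Hba-a1 was at 1127 CPM in female M+Z+ replicate 4, against 637 to 773 CPM in the other 5 embryos of the group, and this was also the female with the highest Hbb-y. Female M-Z- replicate 3 stood apart in Zfpm1, at 55.6 CPM against 77.0 to 81.0 CPM, and in Epb42, at 25.4 CPM against 53.4 to 57.2 CPM. Male M+Z+ replicate 3 stood apart in Slc4a1, at 871 CPM against 730.4 to 752 CPM, and in Slc25a37, at 539 CPM against 432 to 448 CPM.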

How the results depend on the processing

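Over 66 results and 1575 alternatives no called change reversed its direction, 60 values moved beyond their limit and 191 lost their call. The count of members called in M-Z- against M+Z+ over both sexes (9 of 28) was 17 of 28 with no minimum change (1661 of 17139 genes) and 0 with only the M+Z+ embryos numbered 4 and above (76 of 17619 genes called, 376 of 17139 in the main test), and leaving out each embryo gave 3 to 16. In females the count (1) was 0 with the same controls (67 of 16737 genes called, 95 of 16871 in the main test). It was 0 to 4 with embryos left out, the 4 without M+Z+ replicate 4 (116 of 16831 genes). In males the count (0) was 5 with no filter on low counts, 2 with DESeq2's Wald test and 0 to 22 with embryos left out. Of all genes, 65 of 16664 were called in the main test, 99 of 22139 with no filter and 188 with DESeq2's Wald test. Without male M-Z- replicate 3, 899 of 16866 genes were. For M-Z- against M-Z+, the count over both sexes (2) was 1 with DESeq2's size factors (95 of 17139 genes called, 97 in the main test) and 0 to 6 with embryos left out. The female count (0) was 1 (Hbb-y) when M+Z+ females were kept out of the fit (37 of 16546 genes, 33 of 16871 in the main test). The male count (0) was 0 to 11 with embryos left out, the 11 without male M-Z- replicate 3 (376 of 16866 genes, 25 of 16664 in the main test). With no minimum shift of the paternal share, 2 members, the identical Hba-a1 and Hba-a2, were called in females for M-Z- (126 of 6464 genes called) and for M-Z+ (20 of 6464). The same 2 were called in males for M-Z- (169 of 6423 genes). With the minimum kept, the male count for M-Z- was 0 to 1 with embryos left out, where the 1 was Rhag, in fits that called 159 to 161 of all genes. The cause of these moves was not tested.

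The module mean difference of M-Z- against M+Z+ (-0.23 in females and -0.19 in males) was -0.43 and -0.59 without the globins, and -0.31 to -0.10 and -0.35 to 0.05 with embryos left out. Between M-Z- and M-Z+ males it was -0.63 without the globins. The module mean difference, M-Z+ vs M+Z+, males, was 0.0501 with TMM-scaled CPM and 0.0381 without the globins. For the globin ratio, the difference of M-Z- against M+Z+ (1.59 in females, 2.03 in males) was 1.28 to 1.88 and 1.26 to 2.93 with embryos left out. Some differences that carried no test changed sign. The module mean difference of M-Z- against M+Z+ males was 0.05 without male M-Z- replicate 2, that of M-Z+ against M+Z+ females (-0.05) was 0.11 without female M-Z+ replicate 3, and the globin ratio difference of M-Z+ against M+Z+ males (0.12) was -0.29 without male M+Z+ replicate 3, and below 0 also without male M-Z+ replicate 3 and with the alpha-like globins only.

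Same-numbered embryos did not deviate together (correlations of -0.24 to 0.40), so the numbers were not taken as pairs. With the replicate number as a block, the counts of members called for M-Z- against M+Z+ were 0 in females (52 of 16871 genes called), 2 in males (the identical Hba-a1 and Hba-a2, with 128 of 16664 genes) and 15 over both sexes (405 of 17139 genes), and 0 for M-Z- against M-Z+ over both sexes. At the depths here a count of 0 allowed up to 0.198 CPM, and members with few strain variants had too few allele-assigned reads for a value.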

Other observations

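Some globin rows kept a nearly fixed ratio in most embryos and others did not. Hbb-bt had 0.411 to 0.454 times the count of Hbb-b1 in 20 embryos, and 0.210 in male M-Z+ replicate 1, 0.191 in male M-Z- replicate 2 and 0.215 in male M-Z- replicate 3. Hbb-y had 57.4 times the count of Hbb-bh1 in male M+Z+ replicate 2, the highest embryo. The lowest were female M-Z- replicate 2 with 28.9 times, female M-Z- replicate 3 with 29.8 times and male M-Z- replicate 1 with 33.3 times. These ratios were chosen after their values were seen and were not tested.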
